A study of Rattus norvegicus with 8 samples.

Results

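The genes described here are 39 rat genes of fatty acid oxidation, ketone body metabolism and the peroxisome, out of 14737 genes that a probe of the array named. They were listed by their function, with earlier results of these data known, so their share of calls is not an unbiased comparison. Each was represented by the probe with the highest mean signal. All 39 had a probe, all 39 passed the filter on dim probes, and 38 were well above background on all 8 arrays. The exception was Pdk4, which was well above background on 4 female arrays and on 1 male array. RNA came from slices of the kidney cortex of adult rats of the outbred Han Wistar strain RCCHanTMWIST, 4 females and 4 males, with each rat on an array of its own. The study compared the sexes, and the labels name the same strain for every animal and no transgene, deletion or treatment. The labels give neither the exact age of the rats nor the stage of the oestrous cycle. Slices hold all cell types of the cortex, so fewer cells of a type and less RNA per cell cannot be told apart.

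Fatty acids are the main fuel of the proximal tubule, the most abundant part of the cortex. In mitochondria, acyl groups enter through the carnitine shuttle and are shortened in repeated rounds of dehydrogenation, hydration, a second dehydrogenation and thiolytic cleavage. Peroxisomes run a parallel pathway for very long, branched and dicarboxylic acyl groups, in which an oxidase in place of a dehydrogenase passes electrons to oxygen and makes hydrogen peroxide, which catalase removes. Acetyl groups left over can become ketone bodies, and nuclear receptors of the PPAR family are known to switch on many of these genes in rodents.

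Levels are given as log2 signal relative to the 75th percentile of the array, on which 0 is the level of a bright probe and negative values are dimmer. They compare rats, not genes, since probes differ in brightness for reasons of their own. Differences are log2 fold-changes, male minus female, from limma, with p corrected for all 23425 tested probes by Benjamini and Hochberg's procedure, and a gene was called at an adjusted p below 0.05. The 75th percentile lay between 5025 and 6547 signal units, from 73.8% to 79.1% of the probes of an array exceeded background clearly, and saturated spots were absent (0). The number of arrays limits the precision. Correlations between arrays over all probes were 0.992 to 0.995 within a sex and 0.984 to 0.991 between sexes.

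Upstream sequences of RefSeq, build GRCr8, are shown for the 3 called members that differed by at least 1 on the log2 scale, for Eci1, and for the stretch that lies between Hadhb and Hadha. Hadhb was not called, and the other called members, among them Acadm, are not shown. Of the stretches shown, only that of Eci1 and that between Hadhb and Hadha hold a marked match, so they do not stand for the called genes. They cover only bases outside the annotated genes. Capitals mark the motif matches described after the sequences. The Hao1 stretch is chr3:142281528-142281744 on the minus strand, Pecr is chr9:81375810-81376056 on the minus strand, Acox2 is chr15:19090705-19090819 on the plus strand, Eci1 is chr10:13961000-13961249 on the plus strand and the stretch between Hadhb and Hadha is chr6:31907558-31907750 on the plus strand.
Hao1: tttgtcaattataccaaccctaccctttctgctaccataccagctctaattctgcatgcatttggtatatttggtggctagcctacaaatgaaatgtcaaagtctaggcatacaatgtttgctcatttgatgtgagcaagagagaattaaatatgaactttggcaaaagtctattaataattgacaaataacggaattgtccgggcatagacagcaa
Pecr: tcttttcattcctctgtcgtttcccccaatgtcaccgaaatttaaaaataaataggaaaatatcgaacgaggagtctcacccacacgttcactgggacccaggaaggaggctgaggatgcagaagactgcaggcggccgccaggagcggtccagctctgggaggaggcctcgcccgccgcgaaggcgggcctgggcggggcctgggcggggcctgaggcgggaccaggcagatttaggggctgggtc
Acox2: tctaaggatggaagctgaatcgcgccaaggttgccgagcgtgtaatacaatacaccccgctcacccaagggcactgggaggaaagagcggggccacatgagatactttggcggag
Eci1: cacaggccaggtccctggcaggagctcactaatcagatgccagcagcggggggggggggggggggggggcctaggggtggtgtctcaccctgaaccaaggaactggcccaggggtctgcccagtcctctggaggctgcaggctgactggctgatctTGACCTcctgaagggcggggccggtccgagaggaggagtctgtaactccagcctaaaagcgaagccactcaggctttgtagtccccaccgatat
Hadhb-Hadha: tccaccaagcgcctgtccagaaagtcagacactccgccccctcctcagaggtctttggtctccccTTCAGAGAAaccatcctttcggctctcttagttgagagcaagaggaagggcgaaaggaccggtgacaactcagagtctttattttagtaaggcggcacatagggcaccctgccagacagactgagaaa

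The Hao1 stretch had 36.9% G and C and 2 CpG dinucleotides in 217 bases, against 61.1% and 16 in the 247 bases of Pecr, 56.5% and 7 in the 115 bases of Acox2, and 64.4% and 6 in the 250 bases of Eci1. Windows of 300 bases around the start were held for 36 of the 39 genes, all but Acaa2, Acadl and Decr1, and were searched on both strands. The receptor hexamer AGGTCA lay in 7 of the 36 windows and in 16.2% of all 33469 windows, and among the 11 called genes in Eci1, as TGACCT in capitals, and in Hsd17b4. The PPAR-type direct repeat, which is that hexamer followed by any 1 base and the hexamer again, lay in none of the 36 and in 0.0538% of all windows. The STAT palindrome TTCNNNGAA lay in 3 of the 36 windows and in 8.87% of all. These were Crat and the pair Hadha and Hadhb, whose windows share 1 match, TTCAGAGAA in capitals above. The start sites that place these 2 windows face away from each other with 300 bases between them. The annotated genes reach past these sites, so that the stretch shown has 193 bases. Both BCL6 forms, TTCCTAGAA and TTCCTCGAA, which are special cases of that palindrome, lay in 0 of the 36 windows and in 0.376% and 0.0657% of all. A match describes letters only.

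Of the 39 genes, 11 were called, 9 with a higher level in males and 2 with a higher level in females. That is 28.2% of the genes, beside 8.06% of all probes tested, with 23.1% beside 3.39% in the male direction and 5.13% beside 4.67% in the female direction. Among the brightest probes of the named genes the corresponding background was 9.2%, with 4.32% higher in males and 4.88% higher in females. Across all probes, 42.1% of the calls were higher in males, and this share was 56.3% with quantile normalization, under which the members still split into 9 and 2. Only 3 members passed both the adjusted p and an absolute log2 fold-change of 1, namely Acox2, Hao1 and Pecr, beside 1.89% of all probes. In direction, the log2 fold-change was positive for 28 of 39 genes, or 71.8%, beside 41.6% of all probes, and its median was 0.15 beside −0.04. Among the brightest probes of the named genes 45% were positive, with a median of −0.02. The median over all probes depended on the scaling, with 0.007 under quantile normalization and 0.0015 under the authors' log2 values. Under these the values of the members changed too. Every male lay above every female in 13 of the 39 genes, beside 7.46% of all probes, and below in 4, beside 11% of all probes, and the ranges overlapped in the other 22. Among these 4 is Pdk4, which passed the filter on dim probes through the females. Ranges were apart in either direction, which gives an exact permutation p of 0.0286, in 18.4% of all probes. An unadjusted limma p below 0.05 was found in 2279 of the 23425 probes in the male direction and in 3708 in the female direction.

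**Figure D1:**
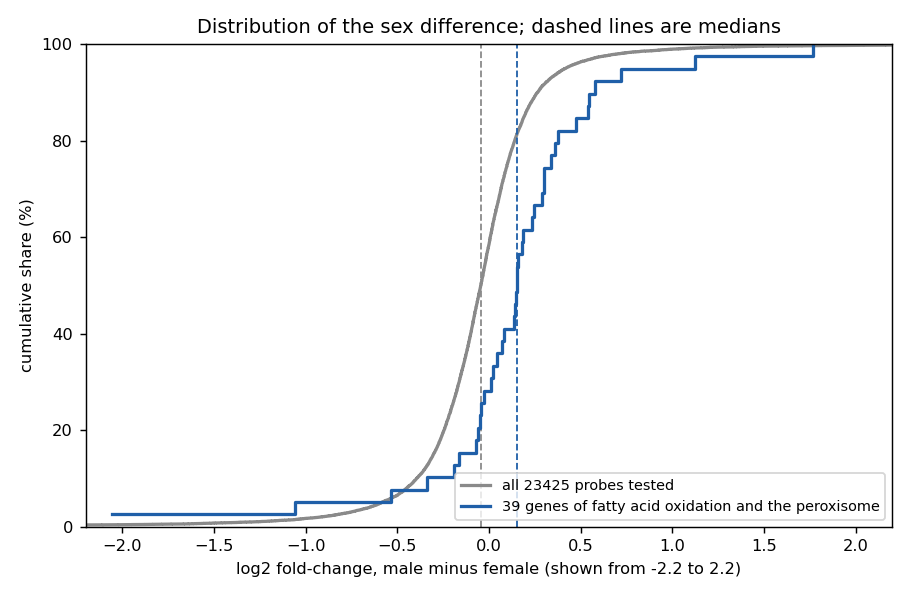
Cumulative share in percent (vertical axis) of log2 fold-changes, male minus female (horizontal axis), for the 39 genes and for all 23425 probes tested, with dashed lines at the medians. The curve of the 39 genes lies to the right of that of all probes over most of its range, with medians of 0.15 and −0.04, and its left end is Acox2.

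Calls near the threshold were mostly lost when 1 array was left out. Acadm, Eci1, Pecr, Acox2 and Hao1 were called with any 1 of the 8 arrays left out. Of the other called genes, Acox3 was called in 2 of these 8 fits, Cpt1a, Ehhadh, Hsd17b4 and Crot in 1 each and Hadha in 0. The number of called genes was 5 to 7 whichever array was left out, with 5 without female 2, female 3 or male 4, 6 without female 1, male 1 or male 3, and 7 without female 4 or male 2. The 6 without male 1 include Pdk4 (limma adjusted p = 0.0474), which was not called in the fit to all rats and passed the filter through the females. No member called in the fit to all rats changed direction in any of these 8 fits. The share of all probes called was then 4.32% to 6.59%, beside 8.06% with all arrays. Whether calls were lost through particular rats or through the smaller number of arrays was not tested.

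**Figure D2:**
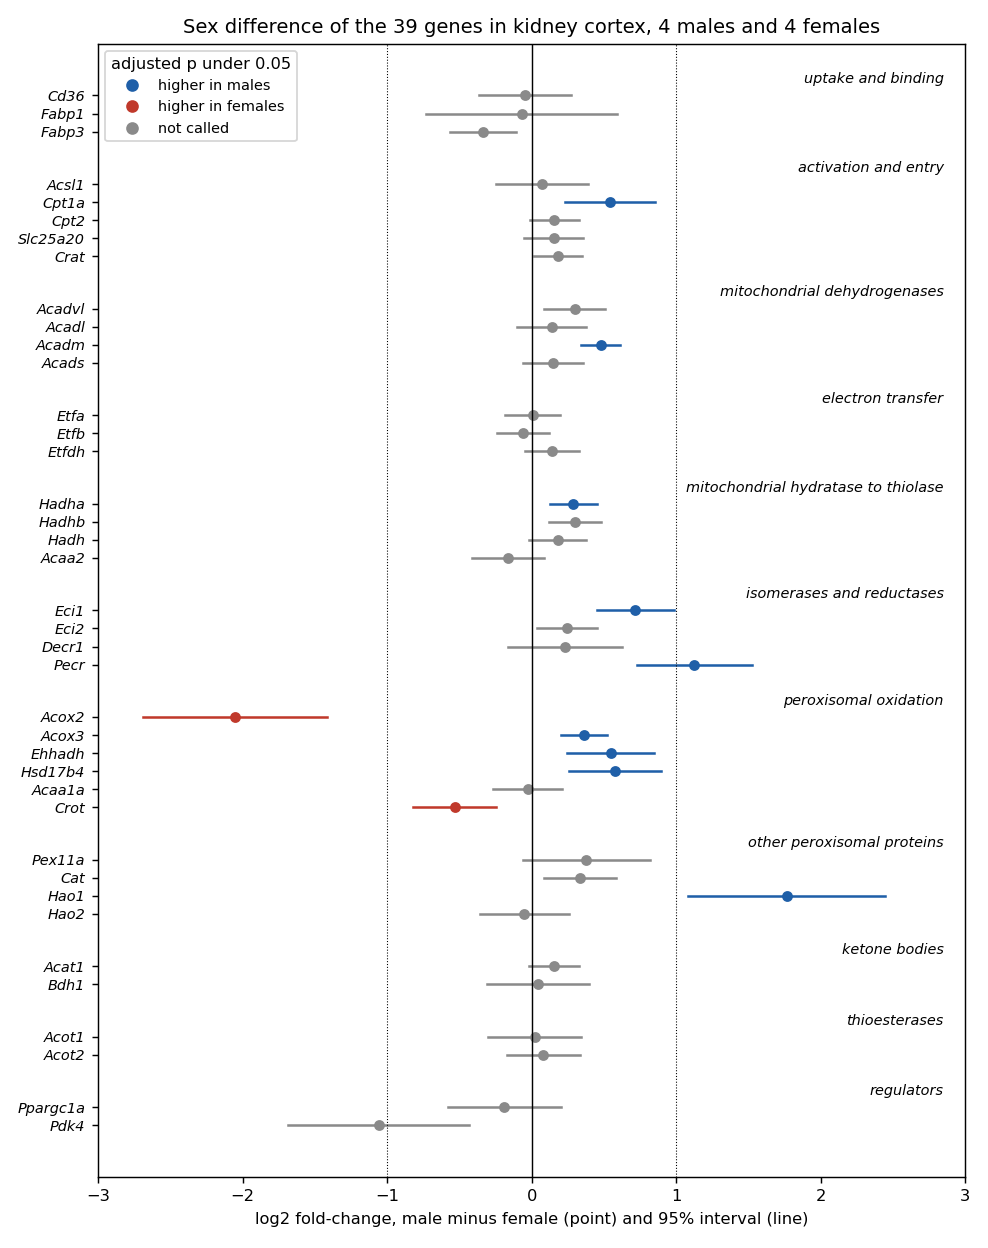
Log2 fold-change, male minus female (points, horizontal axis), with its 95% interval (lines) for the 39 genes, grouped by role, from 4 males and 4 females. Blue and red mark genes called higher in males and in females, grey those not called, and dotted lines stand at −1 and 1. Most points lie between 0 and 1, Hao1 and Pecr lie beyond 1 and Acox2 beyond −1, as does Pdk4, which was not called.

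Of 3 proteins of fatty acid uptake and binding none was called, and 1 had an unadjusted p below 0.05. Cd36, a membrane protein that helps fatty acids into cells, had a log2 fold-change of −0.05 with a 95% interval from −0.37 to 0.27, and its dimmer probe gave 0.01. Fabp3, the heart type of cytosolic binding protein, was at 2.51, 2.67, 2.81 and 2.77 in the females and at 2.46, 2.37, 2.15 and 2.43 in the males. Its ranges did not overlap, with every male below every female, but the difference of −0.34 (SE 0.10) did not pass the test, adjusted p = 0.0767. Fabp1, the liver type, gave a dim signal that ranged from −7.27 to −5.91 in females and from −7.12 to −6.75 in males.

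Of the 5 genes of activation and mitochondrial entry, 1 was called, although all 5 had positive fold-changes, from 0.07 to 0.54. Cpt1a, the liver isoform of the outer membrane carnitine palmitoyltransferase and the controlled step of entry, had values of −0.29, −0.36, −0.70 and −0.54 in females and of 0.26, −0.24, 0.23 and 0.03 in males. The lowest male lay just above the highest female, and the log2 fold-change was 0.54 (SE 0.14, adjusted p = 0.0476), a 1.46-fold higher level in males. Without male 2, the lowest of the males, the difference was 0.64 with an adjusted p of 0.0312, and without any other single rat it was not called. The inner membrane enzyme Cpt2 had 0.16, the carnitine-acylcarnitine exchanger Slc25a20 had 0.15, and Acsl1, which makes acyl-CoA, had 0.07, with 95% intervals that included 0. Crat, carnitine acetyltransferase, had 0.18 with every male above every female and an adjusted p of 0.159.

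Among the 4 mitochondrial acyl-CoA dehydrogenases, which carry out the first oxidation step for chains of different length, the medium-chain enzyme Acadm was called. Its values were 3.61, 3.73, 3.64 and 3.65 in females and 4.13, 4.10, 4.14 and 4.16 in males. The 4 male values were close together, with an SD of 0.0225 (n = 4) that was the smallest among the 39 genes in either sex, and the ranges were far apart. The log2 fold-change was 0.48 (SE 0.06, adjusted p = 0.00322), or 1.39-fold, and stayed between 0.46 and 0.54 over 18 alternative fits, in all of which it was called. The very long-chain enzyme Acadvl had 0.30 (adjusted p = 0.0867), the short-chain enzyme Acads 0.15 and the long-chain enzyme Acadl 0.14, none called. The proteins that take over the electrons, Etfa, Etfb and Etfdh, had differences of 0.01, −0.06 and 0.14 with 95% intervals that lay between −0.24 and 0.33.

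The trifunctional protein of the inner mitochondrial membrane joins hydratase and hydroxyacyl dehydrogenase (Hadha) to thiolase (Hadhb), and of its subunits Hadha was called and Hadhb was not. Hadha was at 0.31, 0.32, 0.41 and 0.40 in females and at 0.64, 0.60, 0.78 and 0.56 in males, a difference of 0.29 (SE 0.07, adjusted p = 0.0458). Hadhb was at 1.23, 1.31, 1.43 and 1.43 in females and at 1.52, 1.71, 1.70 and 1.67 in males, a difference of 0.30 (SE 0.08), and with an adjusted p of 0.0528 it was not called. In both genes every male lay above every female. The differences of the subunits were alike in size, whereas a second, dimmer probe of Hadha gave 0.13 with overlapping ranges and an adjusted p of 0.661. Hadha was not called without any 1 array, with adjusted p from 0.0674 to 0.111. The matrix enzyme Hadh had 0.18 (95% interval −0.02 to 0.38) and the thiolase Acaa2 −0.16 (−0.41 to 0.09).

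Among 4 isomerases and reductases that act on unsaturated acyl groups, 2 were called, both higher in males. Eci1, the mitochondrial enoyl-CoA isomerase, was at 2.67, 2.89, 2.89 and 2.49 in females and at 3.58, 3.32, 3.59 and 3.33 in males, a difference of 0.72 (SE 0.12, adjusted p = 0.00950), or 1.65-fold. Pecr, the peroxisomal trans-2-enoyl-CoA reductase, was at 1.77, 1.50, 2.04 and 1.95 in females and at 3.21, 3.16, 2.57 and 2.82 in males. Its difference of 1.13 (SE 0.17, adjusted p = 0.00789), or 2.18-fold higher, was exceeded in the male direction only by that of Hao1. Both genes had ranges that were well apart. Eci2, the second isomerase, had 0.24 with every male above every female (adjusted p = 0.138), and Decr1, the mitochondrial dienoyl-CoA reductase, had 0.23 with overlapping ranges.

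Peroxisomal oxidation held calls in both directions, 3 higher in males and 2 higher in females among 6 genes. Acox2, the oxidase for bile acid intermediates, was at −2.79, −3.47, −3.48 and −4.29 in females and at −5.35, −5.82, −5.54 and −5.55 in males. The lowest female lay above the highest male, and the females were more spread, with an SD of 0.61 against 0.19 in males (n = 4 each). The log2 fold-change of −2.05 (SE 0.28, adjusted p = 0.00465), a 4.16-fold higher level in females, was the largest difference in either direction among the 39 genes. Crot, which makes carnitine esters of shortened chains for export from the peroxisome, was at 2.58, 2.70, 2.70 and 2.21 in females and at 2.06, 1.84, 2.13 and 2.04 in males. Every male lay below every female, with a difference of −0.53 (SE 0.13, adjusted p = 0.0392), or 1.45-fold, and among the fits without 1 array it was called only without female 4, the lowest female (−0.64, adjusted p = 0.00867).

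The other called peroxisomal genes were higher in males. Hsd17b4, the bifunctional enzyme that follows Acox2, was at 4.08, 3.69, 3.69 and 3.37 in females and at 4.34, 4.34, 4.25 and 4.20 in males. Ehhadh, the bifunctional enzyme for straight and dicarboxylic chains, was at −0.22, 0.0006, 0.0078 and −0.23 in females and at 0.49, 0.15, 0.75 and 0.37 in males. Neither gene had overlapping ranges, with female 1 as the nearest to the males for Hsd17b4 and male 2 as the nearest to the females for Ehhadh. The differences were 0.58 (SE 0.14, adjusted p = 0.0420) and 0.55 (SE 0.13, adjusted p = 0.0415). Hsd17b4 was called only without female 1 (0.70, adjusted p = 0.0130) and Ehhadh only without male 2 (0.64, adjusted p = 0.0307) among the fits that left out 1 array.

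Acox3, an oxidase related to Acox2, gave a dim signal of −6.77, −6.77, −6.74 and −6.69 in females and −6.31, −6.34, −6.52 and −6.34 in males, a difference of 0.36 (SE 0.07, adjusted p = 0.0193). Its size depended on the background correction, and with the normexp method it was 0.11 with an adjusted p of 0.328. Without 1 array it was called in the fits that left out female 4 (adjusted p = 0.0344) or male 3 (adjusted p = 0.0157). The thiolase Acaa1a had 2 probes that differed. The brighter gave −0.03 (95% interval −0.27 to 0.21) with overlapping ranges, whereas the dimmer was at 3.83, 3.83, 3.91 and 3.88 in females and at 4.29, 4.17, 4.19 and 4.26 in males, a difference of 0.37 (SE 0.06, adjusted p = 0.0109). Acaa1a has a near-identical paralogue, Acaa1b, and which of them each probe detects was not tested.

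Of the other peroxisomal proteins, 1 of 4 was called. Hao1, the hydroxyacid oxidase that turns glycolate into glyoxylate and is best known from liver, was at −6.41, −6.21, −6.81 and −6.54 in females and at −4.32, −4.22, −5.62 and −4.74 in males. Every male lay above every female, and male 3 was the lowest of the males. The difference was 1.77 (SE 0.30, adjusted p = 0.0109), or 3.40-fold, and it was 1.13 with normexp background correction and 2.07 without male 3, called in both. Hao2, the kidney isoform, which acts on longer hydroxyacids, was not called, with −0.05 (95% interval −0.36 to 0.26). Catalase (Cat) had 0.34 with every male above every female but an adjusted p of 0.101, and Pex11a, which promotes peroxisome division, had 0.38 with overlapping ranges, from 1.59 to 2.46 in females and from 2.26 to 2.51 in males.

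**Figure D3:**
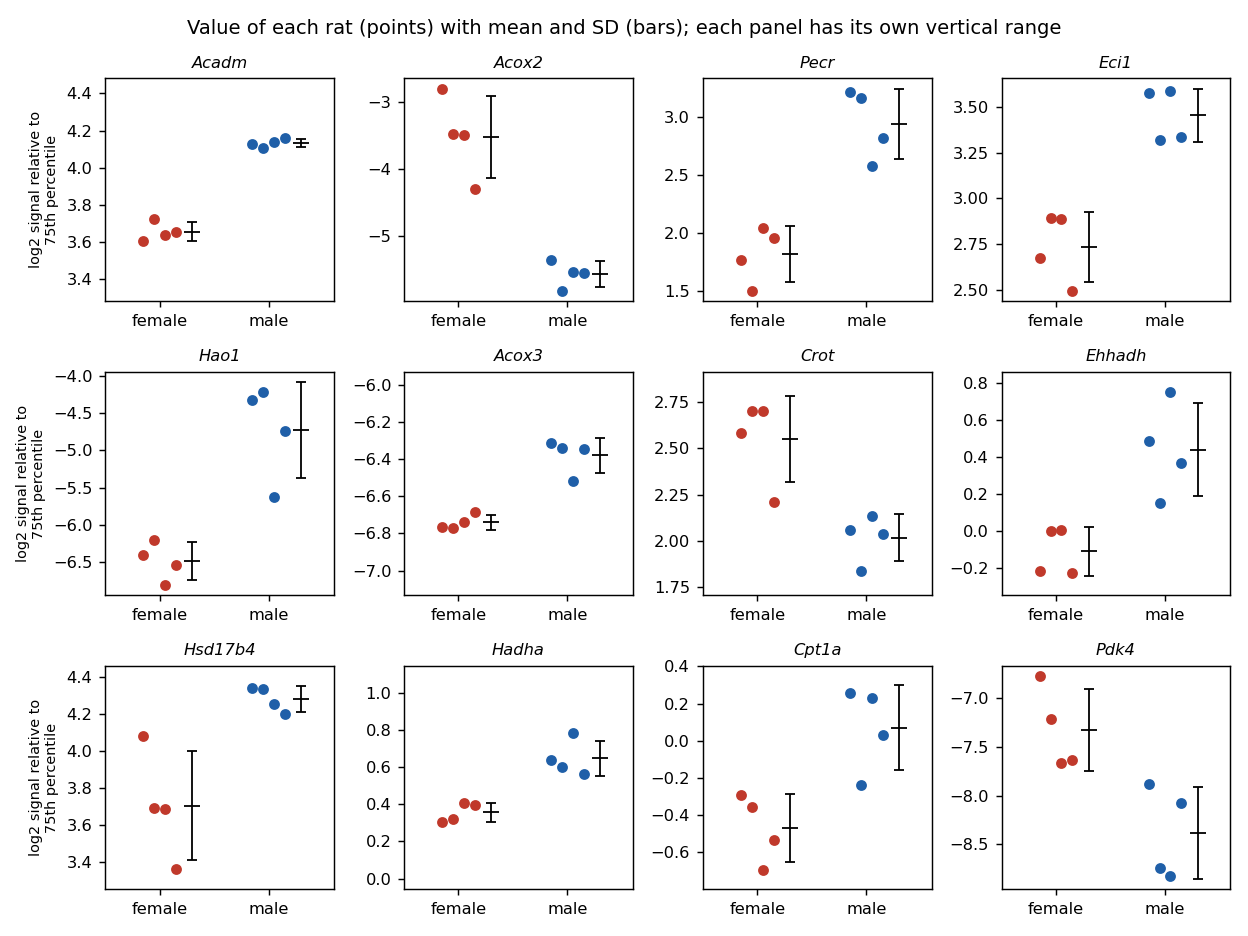
Log2 signal relative to the 75th percentile (vertical axis, each panel with its own range) in 4 females (red) and 4 males (blue) for the 11 called genes and Pdk4, with mean and SD as bars. In all 12 panels the sexes do not overlap, and Acox2, Crot and Pdk4 are the ones in which the females are higher.

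The members among the enzymes of ketone bodies and the thioesterases were not called, and 0 of these 4 had an unadjusted p below 0.05 in limma. Acat1, the mitochondrial acetoacetyl-CoA thiolase, had 0.15 (95% interval −0.02 to 0.33), and Bdh1, which interconverts acetoacetate and hydroxybutyrate, had 0.04 (−0.31 to 0.40). The thioesterases, which release free fatty acids from acyl-CoA, had 0.02 for the cytosolic Acot1 and 0.08 for the mitochondrial Acot2, with intervals from −0.30 to 0.35 and from −0.17 to 0.33. A dimmer probe of Acot2 gave −0.46 (adjusted p = 0.170).

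Both regulators of fuel choice were not called either, and 1 had an unadjusted p below 0.05. Pdk4, the kinase that shuts pyruvate dehydrogenase and so favours fatty acids, was nearest to the threshold from the other side. It was at −6.77, −7.21, −7.67 and −7.63 in females and at −7.88, −8.74, −8.82 and −8.08 in males. Every male lay below every female, the difference was −1.06 (SE 0.27) and the adjusted p was 0.0526, on a probe that met the background criterion in 1 male and in 4 females. It thus passed the filter through the females, and the male values lie mostly near background, so that the size of the difference is uncertain, and it was −0.35 with normexp. Ppargc1a, a coactivator of mitochondrial gene expression, had −0.19 (95% interval −0.58 to 0.20).

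Pairs of genes with related functions were compared by the difference of their fold-changes, each with a two-sided exact permutation test over the 8 rats, adjusted over the 6 pairs. The fold-change of Acox2 differed by −2.42 from that of Acox3, that of Hao1 by 1.82 from that of Hao2, and that of Crot by −0.72 from that of Crat. Each of these had an exact p of 0.0286, the smallest that 4 against 4 rats allow, and an adjusted p of 0.0572, with no overlap between the sexes. Each of these pairs held a gene already called on the same values, so these p are no independent support. The difference between Hadha and Hadhb was −0.01 (SE 0.07, exact p = 0.886), that between Ehhadh and Hsd17b4 −0.03 (SE 0.21, exact p = 0.886) and that between Acot1 and Acot2 −0.06 (SE 0.12, exact p = 0.657). A p of this size does not show that the members of a pair act alike.

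Within a sex the rats differed in how the genes ranked. Among the females, female 4 had the lowest value of its sex in 20 of the 39 genes and the highest in 4, while female 2 was lowest in 3. Among the males, male 1 had the highest value in 20 genes and the lowest in 3, while male 2 was lowest in 15. The SD between rats of a sex had a median of 0.140 over the genes, from 0.0225 to 0.649, beside a median of 0.151 over all probes. The arrays of female 4 and male 1 were in the same row of the slide, with 75th percentiles of 5944 and 6547.

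**Figure D4:**
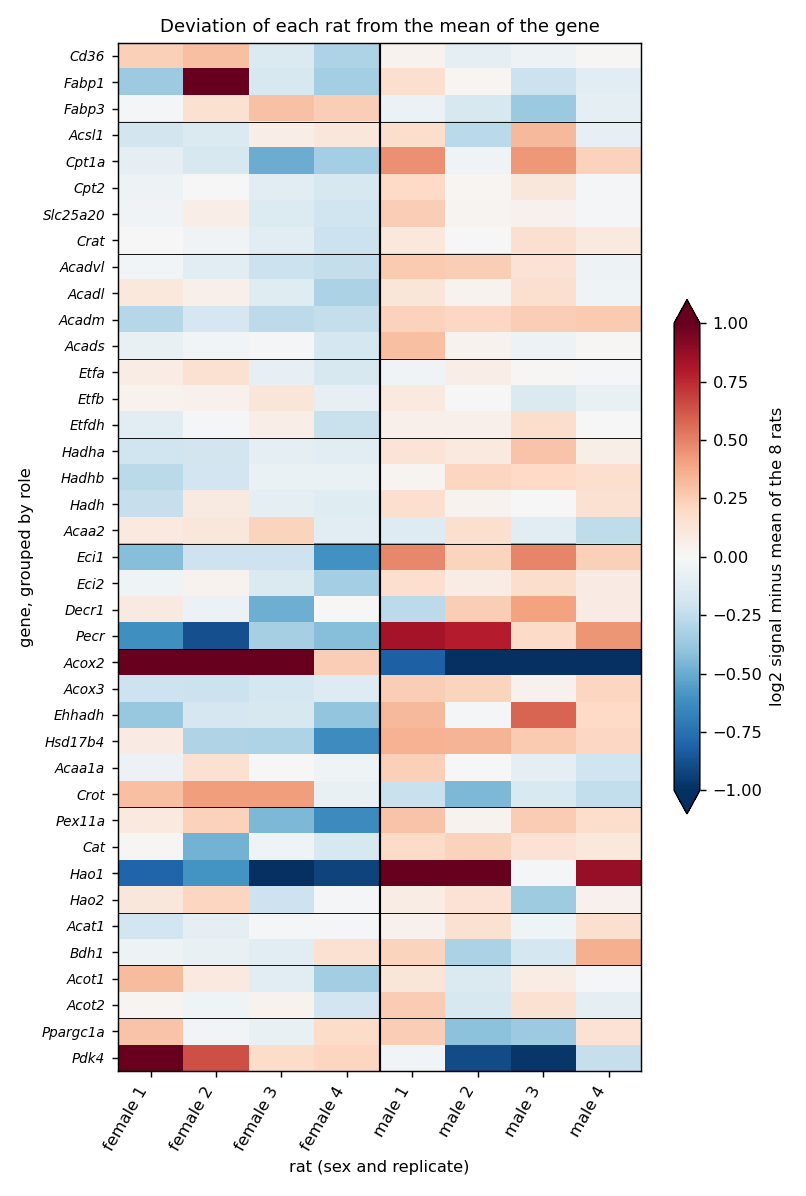
Log2 signal of each rat (columns) minus the mean of the 8 rats for each of the 39 genes (rows, grouped by role), with red above and blue below the mean and colours ending at −1 and 1. Pecr, Eci1 and Acadm are red in all males and blue in all females, and the row of Acox2 has the opposite pattern. Female 4 is lowest of its sex in 20 of the genes.

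Further genes of the same pathways were looked at beside the 39. Of 145 listed, 128 had a probe and 120 passed the filter, and of these 16 were called higher in males and 3 higher in females, while 101 were not called. The 16 include Plin5, which passed the filter through the males, as described below. Over all probes tested 8.06% were called, 3.39% higher in males and 4.67% higher in females, and without 1 array the number of these called genes was 11 to 17, with 11 without female 2 and 12 without female 3. The median fold-change was 0.04, and 70 of 120 were positive. In peroxisomal oxidation, import and acyl exchange 6 of 22 were called, all higher in males. These included the thiolase Acaa1b (0.38, adjusted p = 0.00877), the peroxisomal dienoyl-CoA reductase Decr2 (0.51, adjusted p = 0.0148), the ABC transporter family member Abcd4 (0.34, adjusted p = 0.0330), and the thioesterases Acot3 (0.42, adjusted p = 0.0372) and Acot5 (1.21, adjusted p = 0.0199). Peroxisome assembly, beside the same share of 8.06% over all probes, had 0 calls of 18 by limma and a median of −0.02. An unadjusted limma p below 0.05 was found in 5 of the 18, beside 2279 probes higher in males and 3708 higher in females among all 23425. By the exact permutation test 3 of the 18 passed, which means ranges apart, beside 18.4% of all probes. A dimmer probe of Pex14 (−0.28, adjusted p = 0.0385) and 1 of 3 dimmer probes of Pex19 (−0.31, adjusted p = 0.0482) passed, while the other dimmer probes of Pex19 gave 0.04 and 0.08 and its brightest 0.02.

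Among 3 other peroxisomal oxidases, Pipox, which oxidizes pipecolic acid and sarcosine, was 3.66-fold higher in males (1.87, adjusted p = 0.0189), and the D-amino acid oxidase Dao was not called (0.14). In the list of other genes of mitochondrial oxidation and its supply, Slc22a5, the sodium-dependent carnitine transporter, was higher in males (0.77, adjusted p = 0.00723) and the hydroxyacyl dehydrogenase Hsd17b10 higher in females (−0.38, adjusted p = 0.0480), and the other genes of that list were not called. In uptake, activation and storage, the acyl-CoA synthetases Acsl3 (0.75, adjusted p = 0.00618) and Acss3 (0.60, adjusted p = 0.0260) were higher in males. The lipid droplet protein Plin5 was called too, but its dim probe was well above background in 4 males and only 2 females, so that it passed the filter through the males and no size is given. Lipoprotein lipase (Lpl) was higher in females (−0.79, adjusted p = 0.0184). In the ketone list 1 of 9 was called, higher in males, whereas Oxct1, which uses ketone bodies, had −0.03. Of 8 genes of fatty acid synthesis, the desaturase Fads1 was called (0.44, adjusted p = 0.0314).

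Among 18 regulators, the nuclear receptor Ppard was 2.05-fold higher in males (1.03, adjusted p = 0.000743), and its dimmer probe gave 0.46 (adjusted p = 0.0252). The mean level of Ppard was −2.73 ± 0.16 in females and −1.70 ± 0.04 in males (SD, n = 4). Its relative Ppara had −0.01 and Pparg −0.21, neither called. Pdk2, a pyruvate dehydrogenase kinase (0.45, adjusted p = 0.0330), and Prkaa2, a catalytic subunit of AMP-activated kinase (0.57, adjusted p = 0.00431), were higher in males. Acacb, whose product malonyl-CoA blocks Cpt1a, was higher in females (−0.83, adjusted p = 0.00854). The Acacb probe was dim, with a mean level of −5.92 in females and −6.75 in males. Angptl4, a PPAR-responsive gene, had 1.53 and was not called (adjusted p = 0.0816).

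The makeup of the slices was checked with marker genes, whose summed signal is given as log2 relative to the 75th percentile. For comparison, 2279 of all 23425 probes had an unadjusted limma p below 0.05 in the male direction and 3708 in the female direction. Ranges apart, the condition for passing the exact permutation test, were found in 18.4% of all probes. Markers of proximal tubule segments 1 and 2, 9 of 9 tested, summed to 7.54 to 7.68 in females and 7.56 to 7.65 in males, with 1 called in each direction. The 7 markers of segment 3 summed to 6.73 to 7.28 in females and 6.67 to 6.80 in males, with Slc5a10 higher in females (−1.49, adjusted p = 0.0122). Of these 7, 6 were lower in males, with a median of −0.27. By limma 3 had an unadjusted p below 0.05, and 2 passed the exact permutation test. The sums did not overlap for the thick ascending limb, with 6.24 to 6.42 in females and 5.99 to 6.12 in males and 2 of 5 markers called higher in females, and for the glomerulus, with 3.91 to 4.01 and 3.69 to 3.75 and 2 of 6 called higher in females. They overlapped for adipocytes, with −1.36 to 0.07 in females and −1.50 to −0.95 in males and 0 of 5 called by limma (2 at an unadjusted p below 0.05, 0 by the exact permutation test). Collecting duct markers summed to 5.55 to 5.97 in females and 5.26 to 5.70 in males, with 7 of 8 lower in males, a median of −0.26 and 0 called by limma (3 at an unadjusted p below 0.05, 0 by the exact permutation test). Those of macrophages and leukocytes summed to −1.01 to −0.23 and −0.48 to −0.05, with a median of 0.28 over 6 markers and 0 called by limma (1 at an unadjusted p below 0.05, 0 by the exact permutation test). No marker was called by limma for the distal convoluted tubule, endothelium, striated muscle, adrenal gland or red blood cells, whose sums overlapped between the sexes, although 2 of endothelium and 1 of striated muscle had an unadjusted p below 0.05, and 2 of endothelium passed the exact permutation test. The liver sums did not overlap either and were higher in males, with 0.845 to 1.30 in females and 1.66 to 1.835 in males. Of 5 tested liver markers, Apoc3, which made up most of their summed signal, was called higher in males (0.82), and Ttr was called higher in females, well above background in 4 females and 2 males, while Apoa1 was well above background on 0 arrays. The adrenal markers Star and Cyp11b1 and the muscle markers Myh2 and Myl1 were well above background on 0 arrays. The part of these differences in the results for the 39 genes was not tested.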

How the data were processed

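Kidney cortex RNA of 4 male and 4 female rats was hybridised to 8 one-colour Agilent arrays on 1 slide. Samples were grouped by the sex in their labels. The authors deposited signal intensities of every spot, background-subtracted and spatially detrended by Feature Extraction 10.7.3.1 and, per the file headers, not scaled to each other. A table of log2 values was likewise deposited by the authors, with the same distribution on every array. The submitters' processing notes name limma 3.8.2.

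Here spots marked as outliers (0.694% to 1.57% of an array) were dropped, signals were divided by the 75th percentile over non-control spots of their array and turned to log2, and spots of a probe were averaged. Probes well above background on at least 4 arrays were kept (23425 of 30367). The fit used limma 3.58.1 in R 4.3.3 (lmFit and eBayes, male minus female, no covariates), with the Benjamini-Hochberg method over all probes tested, and was tested on simulated data. Single comparisons used the 70 assignments of 8 rats to 4 and 4 (exact permutation test, smallest p 0.0286). Figures were drawn in matplotlib.

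Probes were named through RefSeq accessions (17514 probes named), with 1 probe per gene, that of the highest mean signal. In all, 4 of the 39 genes had 2 probes. No probe sequence was used here, so that cross-hybridisation between paralogues was not tested. Every member is accounted for, and those called and the nearest uncalled one are given rat by rat. Other pathway genes were named where they passed both thresholds or acted beside a called member; the rest of the called ones, and Ppara, Pparg, Angptl4, Dao and Oxct1, were named after their values were seen. The members, lists and pairs were chosen with earlier results of these data known. Some pathway genes, among them called ones, are not reported here. Alternatives tried were quantile normalization, the authors' log2 values, normexp (offset 50), the probe filter, outlier spots, the prior, array weights, blocks, the second probe and leaving out each rat.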

Additional observations from a re-analysis of the deposited data

Results flagged for a closer look

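Among the 78 sets of 4 values, those of the 39 genes in each sex, 2 had a rat that stood apart from the other 3 by Dixon's criterion, where chance gives about 1 in 20, or 3.9 of 78. Fabp1 was at −5.91 in female 2 against −7.27 to −7.07 in the other females. Acox3 was at −6.52 in male 3 against −6.34 to −6.31 in the other males, and it was the male nearest to the females. Both probes were dim. The cause was not tested.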

How the results depend on the processing

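The number of called members, 11, was 10 to 14 under quantile normalization, the authors' log2 values, normexp, the stricter filter, outlier spots kept, the trended robust prior, array weights and the second probe, and 8 with the slide row as a block. It was 6 without the filter on dim probes, where p was adjusted over 30367 probes, and 5 to 7 without 1 array. Calls split into 9 in the male and 2 in the female direction under quantile normalization, and into 10 and 3 under the authors' values. Members past both thresholds numbered 3 or 4 throughout. The 19 other pathway genes were 11 to 17 without 1 array (11 without female 2, 12 without female 3) and 14 to 24 otherwise, apart from the block.

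With the replicate number as a block, 5 members and 11 other pathway genes were called, and Pecr was not (adjusted p = 0.0517). Residuals of rats with the same number correlated at 0.125, 0.043, −0.008 and 0.117, so the numbers were not taken to pair the rats, and the cause of the lower counts was not tested. Small differences changed sign. With quantile normalization Fabp1 was 0.0833, Etfb 0.0314, Acaa1a 0.0923 and Hao2 0.0658. With the authors' values they were 0.0632, 0.0193, 0.0796 and 0.0523, and Hao2 was 0.0155 with array weights. At the second probe Cd36 was 0.0083, Acaa1a 0.37 and Acot2 −0.46. Without 1 array Cd36 ranged from −0.157 to 0.0481, Fabp1 from −0.201 to 0.252, Acaa1a from −0.112 to 0.0357, Hao2 from −0.129 to 0.0598, Etfa from −0.0429 to 0.0598, Acot1 from −0.092 to 0.130, Bdh1 from −0.0678 to 0.157 and Acsl1 from −0.0243 to 0.174. No called member changed sign in any setting tried. For dim probes, such as those of Hao1, Acox3 and Pdk4, the size of the difference depended on the background correction.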
